A study of Mus musculus with 15 samples.

Results

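The genes described here are 7 integrin subunits and 3 adhesion molecules that pair with integrins or act beside them in mouse lymphocytes. They are the alpha subunits Itga4, Itga6, Itgal and Itgav, the beta subunits Itgb1, Itgb2 and Itgb7, the integrin ligands Icam1 and Icam2, and the selectin Selp. They were chosen by name: every probe set whose platform annotation gives exactly 1 of these symbols was taken, which gave 27 of the 45101 probe sets and 10 of the 18194 genes with a probe set of their own. Of the 27 probe sets, 21 had a mean log2 signal of at least 5 in 1 or more groups and were tested. The 6 others, 3 of Itgav and 3 of Itgb1, had no array above 2.95 and are listed only. The tested probe sets were 5 for Itga4, 3 each for Itgb1 and Selp, 2 each for Itga6, Itgal and Itgav, and 1 each for Itgb2, Itgb7, Icam1 and Icam2.

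Integrins are paired alpha and beta chains that lymphocytes use to hold on to vessel walls, other cells and matrix. LFA-1, made of Itgal and Itgb2, binds the ICAM proteins, while alpha4 pairs with beta1 to bind VCAM-1 and with beta7 to bind MAdCAM-1, the vessel address of the gut. Integrins on resting lymphocytes are mostly in a low-affinity state, and talin, kindlin-3 and the small GTPase Rap1 switch them on. P-selectin, the product of Selp, is best known from platelets and endothelium, where it starts the rolling of leukocytes.

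The samples were B cells and T cells from spleens of B6x129 mice, on 15 Affymetrix arrays in 5 groups of 3. The groups were B cells given lipopolysaccharide (LPS, a bacterial cell wall component) at 25 ug/ml for 4 h, B cells at 0 h, and T cells at 0 h, after 4 h and after 14 h with 7.5 ug/ml concanavalin A (ConA, a plant lectin that activates T cells). The labels describe 0 h B and T cells as resting, and their growth notes speak of cultured splenocytes without saying how B and T cells were purified. No group was kept in culture without LPS or ConA, so the effect of the agent and that of culture cannot be told apart. Only B cells were given LPS and only T cells ConA. Where the B and T responses are compared, cell type and agent therefore cannot be told apart. The labels do not say whether replicates were separate animals or cultures, so p-values measure the spread between these samples, which may be technical.

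Values are log2 signals from GCRMA with a shared floor at 2.24, which held 42.3% of all values within 0.01. The T cell markers Cd3d and Cd3g read 13.78 and 13.35 in T cells at 0 h, against 2.82 and 2.40 in B cells at 0 h. The B cell marker Cd79a read 12.65 in resting B cells and 2.34 in resting T cells. Some other markers were above the floor in the other cell type. Cd79b read 14.71 in resting B cells and 7.65 in resting T cells, and Ms4a1 14.7 and 6.08. Among the other T cell markers, Cd3e and Cd5 read 5.04 and 3.45 in resting B cells, while Thy1 was near the floor there, at 2.25. On 2 arrays the dap spike-in RNA gave a weak 5' signal: its 3' minus 5' difference was 4.59 on T 0 h replicate 2 and 5.94 on T ConA 4 h replicate 1, against 1.82 to 2.67 on the other T arrays and 0.90 to 1.44 on B arrays. Within each group the arrays correlated at 0.995 to 0.999. With 3 arrays a group, their number limits the precision, and equal RNA masses of 100 ng were labelled, so a change in RNA per cell is not visible.

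Both directions of change occurred among these genes in activated cells. Counted by the brightest probe set of each gene, LPS at 4 h raised 4 of 10 in B cells (Itgal, Itgav, Itgb1 and Icam1) and lowered 5 (Itga4, Itga6, Itgb2, Itgb7 and Icam2). ConA at 4 h raised 3 (Itgav, Icam1 and Selp) and lowered 6, which were the same 5 and Itgal. After 14 h of ConA 2 were higher than at 0 h (Icam1 and Selp) and 6 were lower. A gene was called at a Benjamini-Hochberg adjusted p under 0.05 in limma over all probe sets tested. By that rule 79.2% of 9045 genes changed with LPS, 65.0% with 4 h of ConA and 67.4% with 14 h, beside 9, 9 and 8 of the 10 members. By direction, 37.3% of all genes rose and 42.0% fell with LPS, 32.9% and 32.0% with ConA at 4 h, and 36.0% and 31.3% at 14 h, so the split of the members with LPS was close to that of all genes. The median change of the 10 genes was -0.70 with LPS, -0.47 with ConA at 4 h and -0.48 at 14 h, beside -0.05, 0.00 and 0.03 over all genes. Of the 21 probe sets tested, 4 passed the filter through 1 group alone and had to differ there, namely 1427615_at of Itga4 (T cells at 0 h) and the 3 of Selp (T cells at 14 h). With these included, 7 rose and 9 fell with LPS, 3 rose and 11 fell at 4 h of ConA, and 4 rose and 10 fell at 14 h. Over all 16238 probe sets the same rule called 76.4% with LPS (38.4% up, 38.0% down), 61.5% at 4 h of ConA (32.3% up, 29.2% down) and 64.7% at 14 h (34.3% up, 30.4% down). Between 14 h and 4 h of ConA 7 of the 21 were higher at 14 h and 2 lower, where 44.7% of all probe sets were called (23.3% up, 21.4% down). By gene 4 were higher at 14 h than at 4 h (Itgal, Itgb2, Itgb7 and Selp) and 2 lower (Itga4 and Itgav), beside 47.3% of all genes. The LPS and 4 h ConA responses differed in 15 of the 21, beside 62.0% of all probe sets. Both ConA comparisons use the same 0 h arrays.

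**Figure D1:**
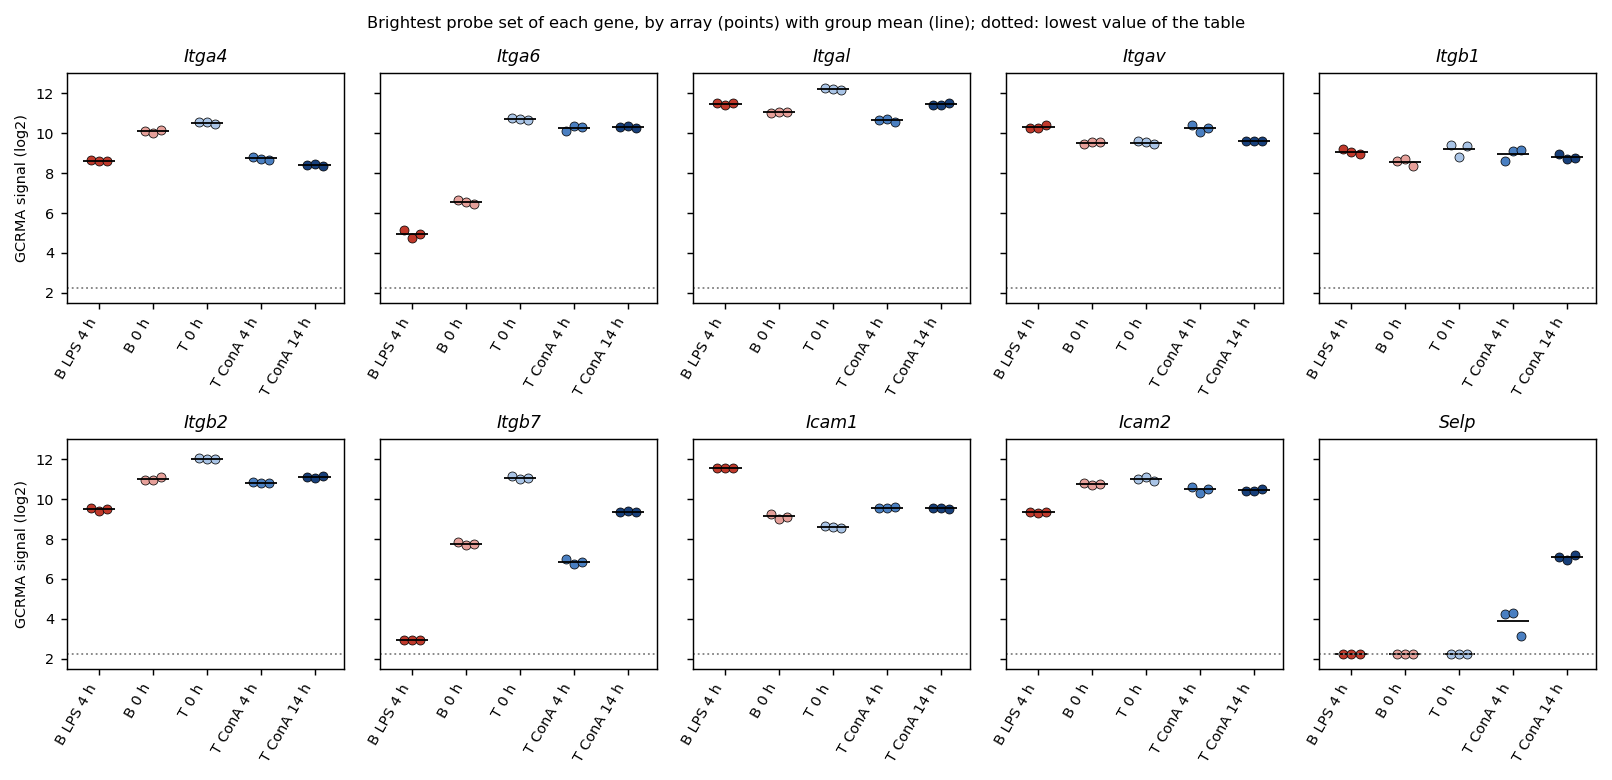
Log2 GCRMA signal (vertical axis) of the brightest probe set of each of the 10 genes on every array, with 3 points per group, a line at the group mean and a dotted line at the lowest value of the table, 2.24. Itgb7 drops in both lineages and partly returns at 14 h, Icam1 is highest in B cells after LPS, and Selp leaves the floor only in T cells with ConA.

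Icam1, the inducible ligand of LFA-1, rose in both lineages. In B cells it read 11.56, 11.58 and 11.55 after LPS, against 9.27, 9.02 and 9.10 at 0 h. T cells read 8.67, 8.59 and 8.53 at 0 h, 9.56, 9.54 and 9.59 at 4 h, and 9.53, 9.56 and 9.52 at 14 h. Every activated array lay above every 0 h array, and the B arrays after LPS stood highest. The change was 2.43 ± 0.07 (SE) in B cells, or 5.41-fold (limma adjusted p = 2.37e-12), and 0.97 ± 0.07 in T cells at 4 h (adjusted p = 7.02e-08). At 14 h the level was 0.94 ± 0.07 above 0 h (adjusted p = 9.57e-08), and it differed from 4 h by -0.03 ± 0.07 (adjusted p = 0.788), so T cells had reached this level by 4 h and showed no further change beyond the spread. The B response exceeded the T response at 4 h by 1.46 ± 0.10 (adjusted p = 3.67e-08). Resting B cells read 0.54 ± 0.07 above resting T cells (adjusted p = 1.25e-05).

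The stretch of DNA around the start of Icam1 is shown because Icam1 rose in both cell types, and that of Selp because Selp rose with ConA and stayed at the floor with LPS. The windows run from 250 bases before to 50 after the annotated gene start (RefSeq, GRCm38.p6, plus strand), at chr9:21015690-21015989 for Icam1 and chr1:164115014-164115313 for Selp. Capitals mark, in order, GGAAATTCC (the core of an NF-kB site), a match to TTCNNNGAA (a GAS element, the kind STAT factors bind) and TATAAA (the core of a TATA box). These were searched on both strands.
Icam1: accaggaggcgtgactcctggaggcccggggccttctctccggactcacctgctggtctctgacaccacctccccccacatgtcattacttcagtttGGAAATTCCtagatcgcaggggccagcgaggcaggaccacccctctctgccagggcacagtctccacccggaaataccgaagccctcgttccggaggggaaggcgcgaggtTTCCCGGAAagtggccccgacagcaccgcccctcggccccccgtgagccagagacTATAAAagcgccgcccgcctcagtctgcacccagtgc
Selp: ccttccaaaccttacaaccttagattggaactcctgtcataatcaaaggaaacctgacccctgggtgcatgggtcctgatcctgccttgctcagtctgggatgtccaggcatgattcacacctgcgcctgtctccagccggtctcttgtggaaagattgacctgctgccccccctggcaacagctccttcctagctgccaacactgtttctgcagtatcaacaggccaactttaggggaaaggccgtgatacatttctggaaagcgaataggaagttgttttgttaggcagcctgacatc

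In Icam1 the NF-kB core lies at bases 98 to 106 of the window, the GAS match at bases 209 to 217 and the TATA match at bases 264 to 269, with no overlap. The NF-kB core and the GAS match lie before the annotated gene start. The TATA match lies after it, from base 14 of the gene as annotated. Of 32851 RefSeq windows of the same length, 0.317% hold the NF-kB core, 8.30% the GAS match, 13.6% the TATA box and 7.15% the E box (a palindrome, CACGTG). Windows were at hand for 6 members, and the first 3 motifs occur in the Icam1 window and in none of the 5 others, while the E box occurs in 0 of 6. The windows of Itgav and Itgb7 lie inside the gene as annotated, so they do not cover its annotated start. A match is only a run of letters, and binding was not measured here.

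Icam2, the constitutive LFA-1 ligand of resting lymphocytes and endothelium, moved the other way. In B cells it read 9.37, 9.31 and 9.37 after LPS, against 10.80, 10.69 and 10.74 at 0 h, a change of -1.39 ± 0.08 (limma adjusted p = 3.08e-09). T cells read 11.02, 11.10 and 10.89 at 0 h, 10.62, 10.32 and 10.52 at 4 h, and 10.43, 10.43 and 10.49 at 14 h. No activated array reached a 0 h array of its own cell type. The fall in T cells was -0.52 ± 0.08 at 4 h (adjusted p = 0.00012) and -0.55 ± 0.08 at 14 h (adjusted p = 6e-05). The fall with LPS was deeper than that with ConA at 4 h by -0.88 ± 0.12 (adjusted p = 2.41e-05). Resting B cells read -0.26 ± 0.08 against resting T cells (adjusted p = 0.0113), a call that ended without T 0 h replicate 2 (-0.21, adjusted p = 0.0516), with the spike-in as a covariate (-0.15, adjusted p = 0.0973) and under cyclic loess (-0.09, adjusted p = 0.354).

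The 2 chains of LFA-1 did not move together in B cells. Itgb2, the beta2 chain that all leukocyte beta2 integrins share, read 9.56, 9.40 and 9.51 after LPS, against 10.95, 10.98 and 11.12 at 0 h. Itgal, the alpha chain of LFA-1, read 11.49, 11.39 and 11.51 after LPS, against 11.01, 11.08 and 11.05 at 0 h, on its brightest probe set. The groups did not overlap for either gene, and they lay in opposite order. Itgb2 fell by -1.53 ± 0.07 (limma adjusted p = 1.44e-10), and Itgal rose by 0.42 ± 0.07 (adjusted p = 7.76e-05). The second Itgal probe set, 1425367_at, rose too, by 1.32 ± 0.18 (adjusted p = 1.58e-05), with 8.52, 8.31 and 8.71 after LPS and 7.27, 7.17 and 7.14 at 0 h.

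In T cells both chains fell at 4 h and were partly back at 14 h. Itgb2 read 12.08, 12.00 and 12.01 at 0 h, 10.87, 10.80 and 10.81 at 4 h, and 11.10, 11.07 and 11.14 at 14 h. Itgal read 12.28, 12.19 and 12.15 at 0 h, 10.66, 10.70 and 10.56 at 4 h, and 11.43, 11.40 and 11.52 at 14 h. For both genes the 14 h arrays lay between the 2 other groups without overlap. The fall at 4 h was -1.20 ± 0.07 for Itgb2 (limma adjusted p = 5.43e-09) and -1.57 ± 0.07 for Itgal (adjusted p = 4.78e-10). From 4 h to 14 h Itgb2 rose by 0.28 ± 0.07 (adjusted p = 0.00449) and Itgal by 0.81 ± 0.07 (adjusted p = 1.06e-06). The dimmer Itgal probe set fell as well at 4 h (-1.05 ± 0.18, adjusted p = 0.000221), and at 14 h it averaged 5.98, against 5.99 at 0 h.

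The responses of Itgal to LPS and to ConA at 4 h had opposite signs, and their difference was 1.99 ± 0.10 on the brightest probe set and 2.37 ± 0.25 on the other (limma adjusted p = 1.2e-09 and 3.35e-06). For Itgb2 the difference was -0.32 ± 0.09 (adjusted p = 0.0101). At rest, Itgb2 was lower in B than in T cells by -1.01 ± 0.07 (adjusted p = 1.29e-08). The Itgal probe sets went against each other here, with -1.16 ± 0.07 on the brighter and 1.21 ± 0.18 on the dimmer, so no order of B and T cells is given for Itgal.

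Itgb7, the beta chain of the gut homing integrin alpha4beta7 and of alphaEbeta7, changed the most of the 7 integrin subunits at 4 h in both lineages, by brightest probe set. After LPS it read 2.93 on all 3 arrays, against 7.83, 7.68 and 7.77 in B cells at 0 h. In T cells it read 11.15, 11.01 and 11.06 at 0 h, 7.0, 6.74 and 6.84 at 4 h, and 9.36, 9.39 and 9.36 at 14 h. All 5 groups stood apart, in the order T 0 h, T 14 h, B 0 h, T 4 h and B after LPS from high to low. The change with LPS was -4.83 ± 0.07 (limma adjusted p = 6.82e-15), and it may be understated, since 1 value repeated on all 3 arrays marks the lowest reading of this probe set. ConA at 4 h lowered it by -4.21 ± 0.07, or 18.5-fold (adjusted p = 1.86e-13). From 4 h to 14 h it rose by 2.51 ± 0.07 (adjusted p = 1.02e-10) and was then still -1.70 ± 0.07 from 0 h (adjusted p = 6.22e-10). Resting B cells lay 9.93-fold below resting T cells (-3.31 ± 0.07, adjusted p = 1.2e-13).

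Itga4, the alpha4 chain that joins beta1 or beta7, fell in both lineages. Its brightest probe set, 1436037_at, read 8.67, 8.59 and 8.62 after LPS, against 10.09, 10.01 and 10.17 in B cells at 0 h. In T cells it read 10.55, 10.56 and 10.45 at 0 h, 8.81, 8.72 and 8.67 at 4 h, and 8.39, 8.45 and 8.35 at 14 h. The activated arrays were all below the 0 h arrays, and the level did not return by 14 h. It changed by -1.47 ± 0.07 with LPS (limma adjusted p = 1.88e-10), -1.79 ± 0.07 with ConA at 4 h (adjusted p = 1.16e-10) and -0.34 ± 0.07 from 4 h to 14 h (adjusted p = 0.00117).

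The probe sets of Itga4 differed in the size of their fall in T cells. Leaving out 1427615_at, 4 of 4 fell at 4 h, from -1.67 ± 0.26 on 1450155_at to -3.81 ± 0.09 on 1421194_at. On 1450155_at the T cell arrays at 4 h read 2.24, 2.55 and 2.35, near the floor, so its fall may be understated. The same 4 fell in B cells, by -0.77 to -1.47. The fifth, 1427615_at, read 5.84, 6.24 and 5.36 in T cells at 0 h and no more than 2.28 on the 12 other arrays. It was tested only because of those 3 arrays, so its lower level in all other groups followed from the filter and is given as a description. Probe set 1450155_at went the other way at rest, with 8.77, 8.64 and 8.53 in B cells and 4.48, 3.24 and 4.42 in T cells. So B minus T at 0 h was 4.60 ± 0.26 on 1450155_at and 0.67 ± 0.09 on 1421194_at, against -0.43 ± 0.07 on the brightest. On 1456498_at it was 0.43 ± 0.22 (limma adjusted p = 0.0898), which passed without T ConA 4 h replicate 2 (0.43, adjusted p = 0.00665). On 1436037_at, the brightest, cyclic loess gave -0.27 in place of -0.43 (adjusted p = 0.00315). The order of resting B and T cells thus depends on the probe set.

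**Figure D2:**
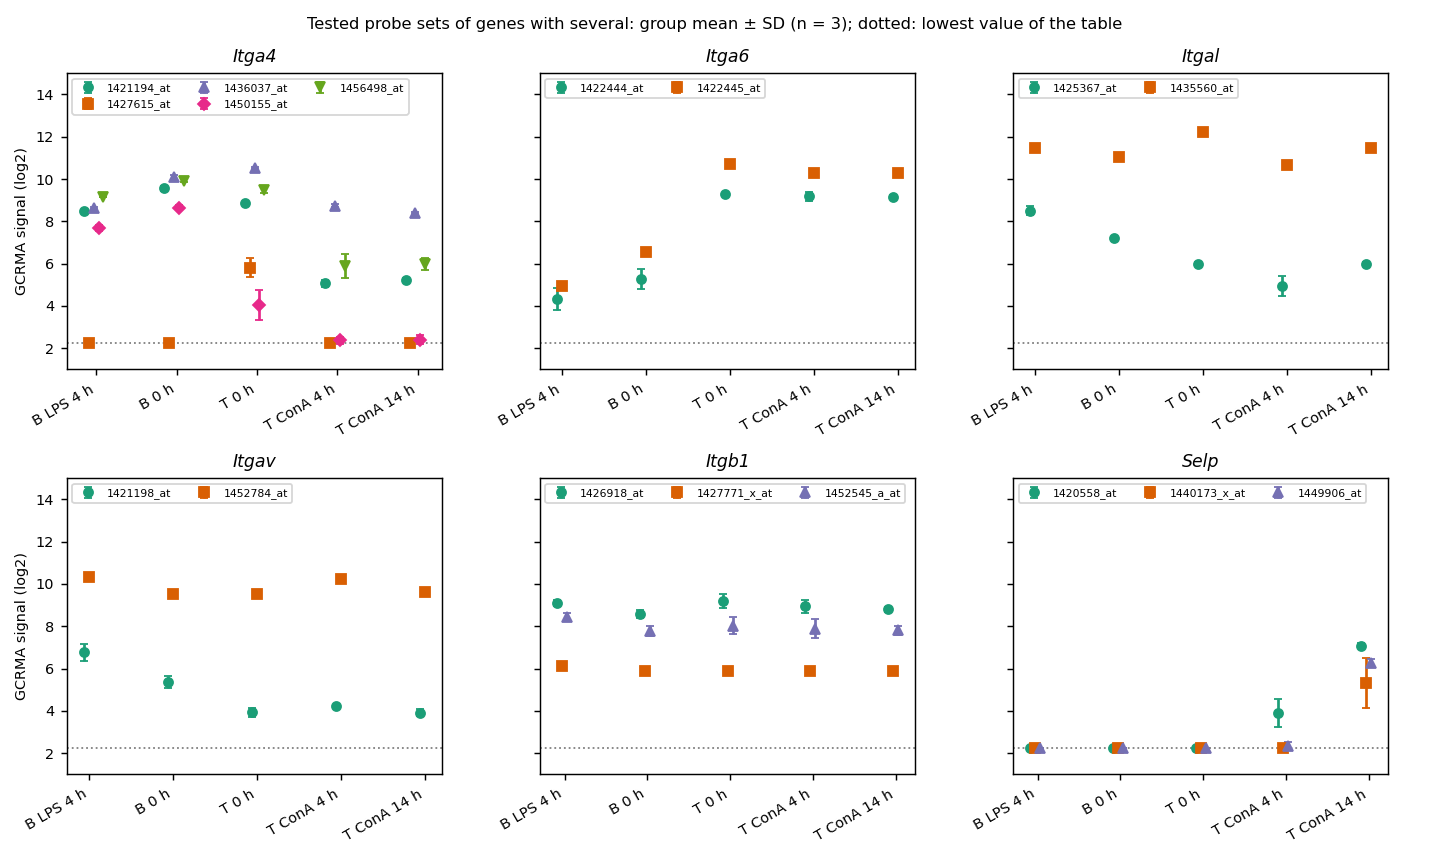
Group mean ± SD (n = 3) of the log2 GCRMA signal for each tested probe set of the 6 genes with several, by group, with a dotted line at 2.24. The Itga4 probe sets differ in which resting cell type is higher, both Itga6 probe sets separate T from B cells, and the 3 Selp probe sets rise together at 14 h.

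Itgb1, the common beta chain of the matrix binding integrins, moved little. Its brightest probe set read 9.23, 9.07 and 8.94 after LPS, against 8.63, 8.71 and 8.36 in B cells at 0 h. T cells read 9.43, 8.81 and 9.34 at 0 h, 8.60, 9.09 and 9.15 at 4 h, and 8.94, 8.72 and 8.78 at 14 h. The B groups stood apart, while the 3 T groups overlapped, and the lowest T 0 h and T 4 h values came from those 2 arrays whose spike-in gave little 5' signal. LPS raised it by 0.51 ± 0.18 (limma adjusted p = 0.018), a call that ended without B 0 h replicate 3 (0.41, adjusted p = 0.0767) or B LPS 4 h replicate 1 (0.44, adjusted p = 0.0666). In T cells the change was -0.25 ± 0.18 at 4 h (adjusted p = 0.248) and -0.38 ± 0.18 at 14 h (adjusted p = 0.0744). Without T 0 h replicate 2 these were -0.44 (adjusted p = 0.0357) and -0.57 (adjusted p = 0.00869). The 14 h call also passed when T ConA 4 h replicate 1 was left out (-0.38, adjusted p = 0.0421).

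The second Itgb1 probe set, 1452545_a_at, rose with LPS by 0.66 ± 0.24 (limma adjusted p = 0.0212), which ended without B 0 h replicate 1 (0.52, adjusted p = 0.0887) or B LPS 4 h replicate 1 (0.55, adjusted p = 0.0812). Another, 1427771_x_at, read 5.91 on all B 0 h arrays and on all T 14 h arrays, a value that may be its background level. With LPS it averaged 6.11 ± 0.19 (SD), a difference of 0.20 ± 0.09 (SE, adjusted p = 0.0517), which passed without B LPS 4 h replicate 2 (0.30, adjusted p = 0.00372) and with T ConA 4 h replicate 1 left out (0.20, adjusted p = 0.0407). The B and T responses of the brightest probe set differed by 0.76 ± 0.25 (adjusted p = 0.0181). On 1452545_a_at they differed by 0.80 ± 0.33 (adjusted p = 0.0516), which passed with any of 4 arrays left out (B 0 h replicate 3, T 0 h replicate 2, T ConA 4 h replicates 2 and 3), at 0.90 to 1.02.

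Itga6, the alpha chain of laminin receptors, set the 2 lineages apart. Its brightest probe set read 5.13, 4.73 and 4.97 after LPS, against 6.66, 6.56 and 6.47 in B cells at 0 h. In T cells it read 10.76, 10.70 and 10.66 at 0 h, 10.13, 10.36 and 10.33 at 4 h, and 10.29, 10.35 and 10.24 at 14 h. No B array came within 3 log2 units of a T array. Resting B cells lay 17.6-fold below resting T cells (-4.14 ± 0.10, limma adjusted p = 2.63e-13), and -4.01 ± 0.25 on the dimmer probe set. LPS lowered it by -1.62 ± 0.10 (adjusted p = 4.26e-09), and ConA at 4 h by -0.43 ± 0.10 (adjusted p = 0.00202), with a difference of -1.19 ± 0.14 between the responses (adjusted p = 7.79e-06). On the dimmer probe set the T cell change at 4 h was -0.11 ± 0.25 (adjusted p = 0.723).

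Itgav, the alpha chain of the vitronectin receptors, some of which activate TGF-beta, rose for a time. Its brightest probe set read 10.25, 10.25 and 10.43 after LPS, against 9.45, 9.55 and 9.58 in B cells at 0 h. The T cell values were 9.59, 9.55 and 9.44 at 0 h, 10.39, 10.08 and 10.25 at 4 h, and 9.61, 9.63 and 9.63 at 14 h. The 4 h arrays of both lineages were higher than the 0 h arrays, and the 14 h arrays lay within 0.2 of the T 0 h arrays. It rose by 0.79 ± 0.09 with LPS (limma adjusted p = 1.57e-06) and by 0.72 ± 0.09 with ConA at 4 h (adjusted p = 8.09e-06), and fell by -0.62 ± 0.09 from 4 h to 14 h (adjusted p = 7.5e-05). The 2 responses at 4 h differed by 0.07 ± 0.12 (adjusted p = 0.641). The dimmer tested probe set rose with LPS (1.40 ± 0.19, adjusted p = 1.88e-05) but read 3.71 to 4.26 in all T arrays, where its change at 4 h was 0.28 ± 0.19 (adjusted p = 0.231). The 3 untested Itgav probe sets lay between 2.24 and 2.95 on all arrays.

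Selp appeared in T cells after ConA. Its brightest probe set read 2.24 on all 6 B arrays and on the 3 T arrays at 0 h, 4.24, 4.30 and 3.15 at 4 h, and 7.11, 6.96 and 7.18 at 14 h. The other probe sets read 5.66, 6.26 and 4.00, and 6.18, 6.47 and 6.16, at 14 h, and stood at or near the floor in all other groups, with 2.59 as the highest value at 4 h. All 3 probe sets therefore left the floor at 14 h, and 1 of them by 4 h. The rise at 14 h was 4.85 ± 0.22, 3.07 ± 0.38 and 4.03 ± 0.10 (limma adjusted p = 9.3e-10, 1.16e-05 and 3.82e-12), and from 4 h to 14 h it was 3.18 ± 0.22 on the brightest. Since the 0 h arrays lay at the floor, the size of the changes against 0 h is not fully measured. All 3 probe sets passed the filter only through their 14 h arrays and so had to differ there.

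P-selectin is a platelet and endothelial product, so markers of both were read beside it. Of 6 endothelial markers, 0 reached level 5 in any group, and Cdh5, Kdr and Tek read 2.24 in T cells at 14 h. Of 6 platelet and megakaryocyte markers, Itga2b, Gp9, Gp1bb, Ppbp and Treml1 were within 0.3 of the floor in T cells at 14 h, and Pf4 read 5.50 there, 3.17 at 4 h and 3.86 at 0 h. The summed linear signal of the 6 platelet markers was 37 to 40 at 0 h, 31 to 36 at 4 h and 66 to 78 at 14 h.

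**Figure D3:**
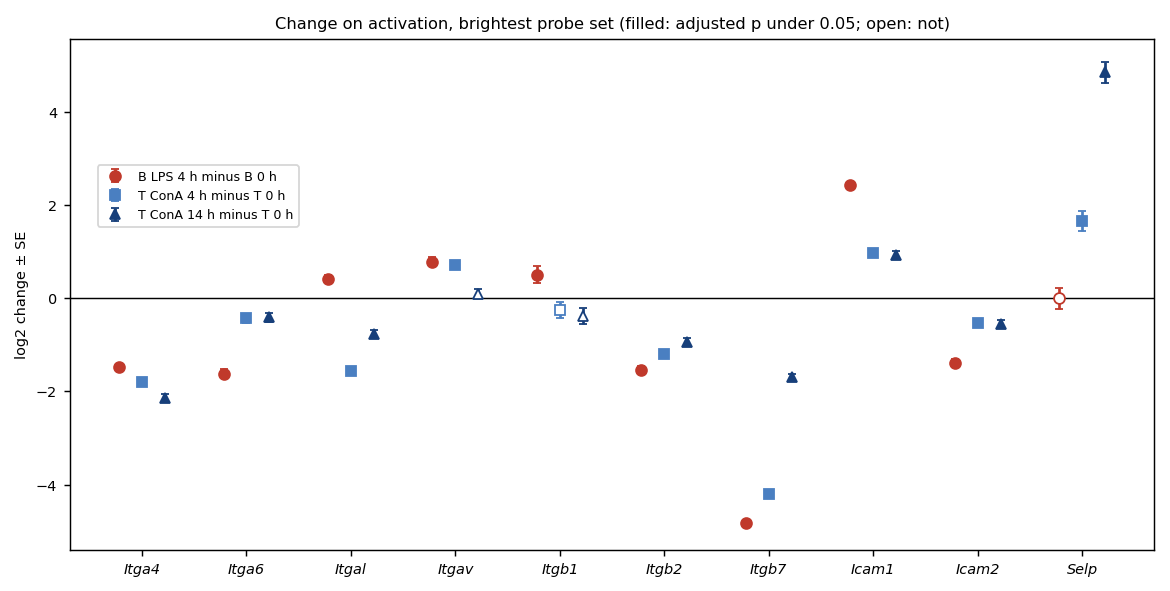
Log2 change ± SE (vertical axis) of the brightest probe set of each gene with LPS at 4 h in B cells and with ConA at 4 h and 14 h in T cells, each against 0 h, with filled symbols for adjusted p under 0.05. Itgal is the gene whose filled symbols lie on both sides of 0, Itgb7 has the deepest falls with LPS and with ConA at 4 h, and Selp has the highest symbol, at 14 h.

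Markers of other cells moved in the same arrays. In bulk samples, fewer cells of a type and less RNA per cell cannot be told apart. In B cells, 1 of 6 macrophage markers reached level 5 after LPS, against 5 of 6 at 0 h, and their summed linear signal was 88 to 120 after LPS, against 3053 to 3171 at 0 h. Neutrophil markers summed to 184 to 214 after LPS, against 1482 to 1815 at 0 h, and the 4 dendritic markers went different ways, with Zbtb46 at 9.49 after LPS, against 4.86 at 0 h, Flt3 at 7.29, against 4.99, Itgax at 2.34, against 6.08, and Xcr1 at or near the floor in both. Erythroid progenitor markers summed to 1023 to 1075 after LPS, against 3160 to 3584 at 0 h, and all 3 of them fell. In T cells the same erythroid markers summed to 503 to 580 at 0 h, 32 to 34 at 4 h and 29 to 40 at 14 h, and the NK cell markers to 3503 to 3640, 1650 to 1823 and 1251 to 1310. The NK sum came from Klrd1 and Prf1, which read 11.68 and 8.15 in T cells at 0 h. The NK marker Ncr1 was within 0.3 of the floor in every T cell group. The 2 neutrophil markers summed to 226 to 293 in T cells at 0 h, 1376 to 1972 at 4 h and 28 to 39 at 14 h. Macrophages, neutrophils and NK cells carry beta2 integrins, and erythroid progenitors carry alpha4beta1, and the part of these cells in the falls of Itgb2 and Itga4 was not tested.

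Other integrin subunits were mostly at the floor. Of 17 with a probe set of their own, 5 were tested, and in B cells 0 rose and 2 fell with LPS. Over all genes 79.2% were called with LPS. Itgax, the dendritic and macrophage beta2 partner, averaged 2.34 after LPS, against 6.08 at 0 h, and was tested only because of its B 0 h level, so that this fall was set by the filter. Itgae, the alpha partner of beta7 in the E-cadherin receptor, fell by -0.92 ± 0.31. It averaged 3.82 after LPS and 4.74 in B cells at 0 h, both under the filter level of 5, which it passed through T cells only. In T cells 1 rose and 3 fell at both times, beside 65.0% of all genes called at 4 h and 67.4% at 14 h. Itgae averaged 10.34 at 0 h, 8.22 at 4 h and 7.51 at 14 h (-2.12 ± 0.31 and -2.83 ± 0.31 against 0 h), so both chains of alphaEbeta7 fell. Itgb8, a partner of alphav, averaged 2.76 at 0 h, 5.92 at 4 h and 4.72 at 14 h. It is the 1 counted as rising, and it passed the filter only through its 4 h arrays, so it had to be high there.

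Genes of integrin activation and adaptor proteins, a list that holds activators and inhibitors, were more often lower than higher in activated cells. Of 36 such genes, 31 were tested, of which 6 rose and 21 fell with LPS, 3 rose and 21 fell at 4 h of ConA, and 2 rose and 21 fell at 14 h. Over all genes 37.3% rose and 42.0% fell with LPS, 32.9% and 32.0% at 4 h of ConA, and 36.0% and 31.3% at 14 h. The median changes were -0.88, -0.49 and -0.51, beside -0.05, 0.00 and 0.03 over all genes. With LPS the deepest falls were in the Rap1 inhibitor Sipa1 (-6.21 ± 0.12), the exchange factors Rasgrp1 (-4.57 ± 0.08) and Rasgrp2 (-4.44 ± 0.09), and Evl, an actin regulator (-4.31 ± 0.09). The Rap1 effector Rassf5 fell by -3.41 ± 0.09, kindlin-3 (Fermt3) by -2.39 ± 0.08 and talin (Tln1) by -1.66 ± 0.13. Against the list, alpha-actinin Actn1 (2.09 ± 0.13) and paxillin Pxn (1.32 ± 0.10) rose.

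In T cells at 4 h the deepest falls of that list were in Rasgrp2 (-4.44 ± 0.09), Sipa1 (-2.68 ± 0.12), filamin Flna (-2.31 ± 0.07) and zyxin Zyx (-1.86 ± 0.20), and Fermt3 fell by -1.19 ± 0.08. Skap2 rose (0.52 ± 0.07), as did Vcl (0.30 ± 0.11) and Actn4 (0.21 ± 0.08). From 4 h to 14 h 10 rose and 2 fell, among the rises Rasgrp2 (1.16 ± 0.09), Sipa1 (1.11 ± 0.12) and Flna (1.06 ± 0.07). Over all genes 26.5% rose and 20.8% fell between these times. Of the genes for Rap1 itself, Rap1a fell by -1.25 ± 0.06 with LPS and read 0.01 ± 0.06 from 0 h with ConA at 4 h, which was not called. Rap1b was not called in either (-0.16 ± 0.08 with LPS, -0.15 ± 0.08 with ConA at 4 h).

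**Figure D4:**
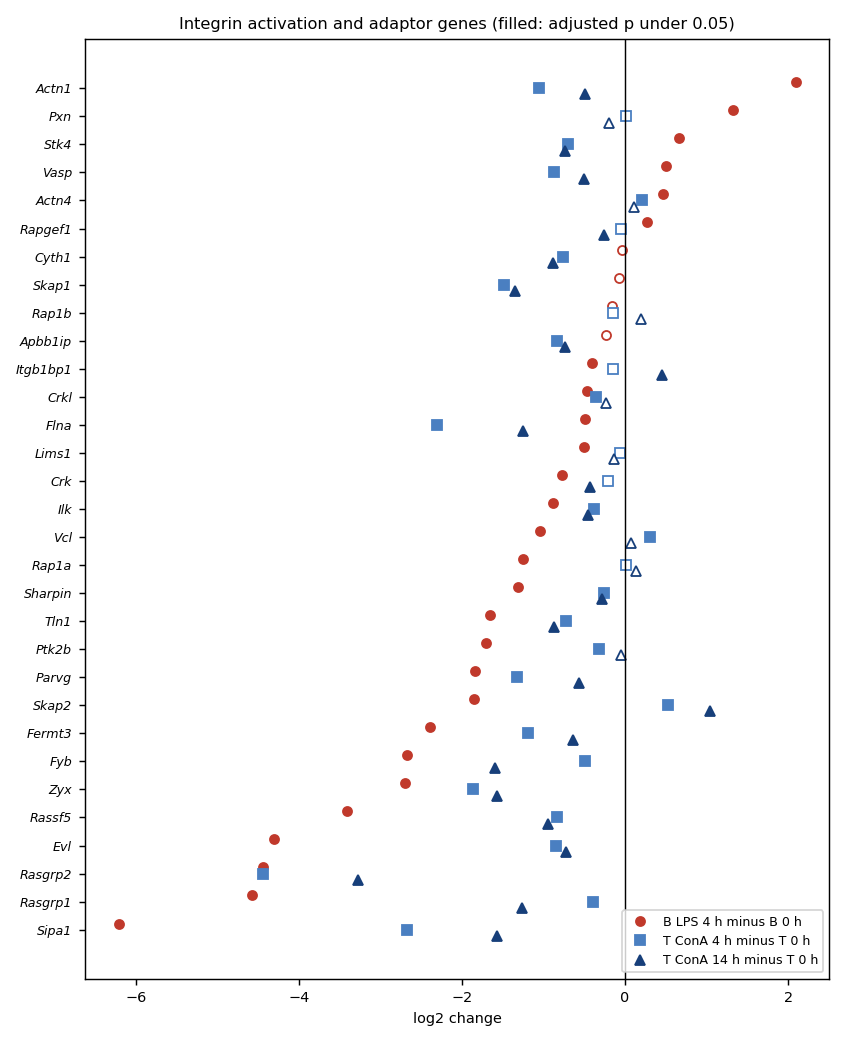
Log2 change (horizontal axis) of the 31 tested integrin activation and adaptor genes with LPS at 4 h in B cells and with ConA at 4 h and 14 h in T cells, each against 0 h, ordered by the LPS change, with filled symbols for adjusted p under 0.05. Most symbols lie left of 0, with Sipa1 lowest and Actn1 highest with LPS.

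Ligands and selectin genes were few above the floor. Of 12 other adhesion ligands 3 were tested. Vcam1, the ligand of alpha4beta1, averaged 4.82 after LPS, against 11.14 in B cells at 0 h (-6.32 ± 0.14), and stayed between 2.24 and 2.25 in T cells, and it is also a red pulp macrophage gene. It was tested only because of its B 0 h level. Cdh1, E-cadherin, the ligand of alphaEbeta7, averaged 4.38 in T cells at 0 h, 6.02 at 4 h and 4.80 at 14 h, and passed the filter only through its 4 h arrays. Of 12 selectin and selectin ligand genes 7 were tested. With LPS 2 rose and 3 fell, with the hyaluronan receptor Cd44 at 2.83 ± 0.12 and the core 2 enzyme Gcnt1 at -4.40 ± 0.24. In T cells 3 rose and 3 fell at 4 h. The shares over all genes were 37.3% up and 42.0% down with LPS and 32.9% up and 32.0% down with ConA at 4 h. With 7 genes tested, no departure from these shares is read. Selplg, the P-selectin ligand PSGL-1, averaged 12.10 at 0 h, 10.64 at 4 h and 11.31 at 14 h (-1.46 ± 0.07 and -0.79 ± 0.07 against 0 h), so against 0 h it lay lower where Selp lay higher. From 4 h to 14 h Selplg rose by 0.67 ± 0.07 (adjusted p = 7.14e-06), as Selp did.

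B and T cells at rest differed in 8 of the 10 genes, 1 higher in B cells (Icam1) and 7 lower, by brightest probe set. Among the 7, Itga4 and Itgal had other probe sets that were higher in B cells. The other tested probe sets of Itgb1 were not called, and the Icam2 call ended under cyclic loess and with the spike-in as a covariate. Over all genes 76.0% differed, 25.3% higher and 50.7% lower in B cells. Of the 21 probe sets 5 were higher and 9 lower in B cells, where 75.5% of all probe sets differed (29.4% higher, 46.1% lower). This comparison depends on scaling, since the median over all probe sets was -0.19 as deposited, -0.30 with array medians set equal and -0.06 with cyclic loess. Itgb7 (-3.31), Itga6 (-4.14) and Itgb2 (-1.01) lay far below each of these medians.

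The genes whose pattern over the 15 arrays was most like that of a member are given as a description, since the arrays share groups. Itgb7 was followed by Gdpd3 and Igha (Pearson r = 0.996 each), Icam1 by Nup62 (0.993), Selp by Tg (0.995) and Ptms (0.988), and Itgb2 by Tmx4 (0.994). Itga6 was followed by Ift80 (0.996) and Spn (0.993), Itga4 by Dock2 and Pag1 (0.993 each), Icam2 by Uvssa (0.991), and Itgav by Csf1 (0.968) and Acod1 (0.965). The least matched were Itgal with Emp3 (0.927) and Itgb1 with Rnf138 (0.911).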

How the data were processed

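Gene expression was measured on 15 arrays, in 5 groups of 3 taken from the sample titles. The deposited values are log2 signals that the authors made with GCRMA (background correction, normalization between arrays and summary into probe sets), per the submitters' processing notes. The sources used here do not give its version. Probe sets were named from the platform table, with 34754 of 34958 single symbols found by Entrez number in a RefSeq gene table and 0 changed. Another 932 probe sets with several genes and 9211 with none were left out.

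The 16238 probe sets with 1 symbol and a highest group mean of at least 5 were fitted with 1 group-means model in limma 3.58.1 (R 4.3.3; lmFit, contrasts.fit, eBayes), with 10 residual and 2.63 prior degrees of freedom. P-values were adjusted by Benjamini-Hochberg over all probe sets tested in each of 6 comparisons, and a call needed an adjusted p under 0.05. A gene was counted by its brightest probe set (highest mean of the 15 arrays). Errors of levels are SD over 3 arrays, and errors of changes are SE from the fit. Alternatives covered normalization, the low-value filter, probe set choice, the variance prior, the samples fitted, the spike-in, a replicate block and each array left out. The 10 members, the gene lists and the tests were chosen with earlier results of these data known. The named genes were the members, their 2 most correlated genes, and up to 4 changed genes of each list with the largest change, with those that moved against their list. Tln1, Fermt3, Rassf5, Rap1a, Rap1b, Selplg and Cdh1 were also named for their roles, with their values seen.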

Additional observations from a re-analysis of the deposited data

Results flagged for a closer look

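For 15 of the 21 tested probe sets the 4 h response to LPS in B cells differed from the 4 h response to ConA in T cells, by limma's test of the difference (adjusted p under 0.05). Over all probe sets tested, 62.0% differed by this rule, so the share is not far from the background. The differences below are the response of B cells to LPS minus that of T cells to ConA, on the log2 scale. Cell type and agent cannot be told apart in them.

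The response was higher in B cells for Itgal on both probe sets (1.99 on 1435560_at and 2.37 on 1425367_at), for Icam1 (1.46), for Itgb1 on 1426918_at (0.76) and for Itgav on 1421198_at (1.11). It was also higher for 4 probe sets of Itga4, by 3.54 on 1427615_at, 2.84 on 1456498_at, 2.75 on 1421194_at and 0.32 on 1436037_at. For Itga4 this reflects a deeper fall in T cells. On 1427615_at the B arrays lay at the floor, so no fall could be measured there. This probe set passed the filter only through T cells at 0 h. Its difference was therefore set by the filter and is listed as a description.

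The response was lower in B cells for Itga6 (-1.19 on 1422445_at and -0.85 on 1422444_at), Icam2 (-0.88), Itgb7 (-0.62), Itgb2 (-0.32) and Selp on 1420558_at (-1.66). For Selp the B arrays were at the floor in both groups. The Itga6 difference on 1422444_at had an adjusted p of 0.0495. It ended with any of 11 arrays left out, with adjusted p up to 0.124, and with the replicate block (-0.85, adjusted p = 0.0566). A further Itga4 probe set, 1450155_at, differed by 0.71 (adjusted p = 0.104), and by 1.12 without T 0 h replicate 2 (adjusted p = 0.000213). Its T cell arrays at 4 h lay near the floor, so its fall in T cells may be understated.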

How the results depend on the processing

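No called change of a member reversed under any alternative run. The number of member probe sets called was 16 with LPS, 14 with ConA at 4 h, 14 at 14 h, 9 between 14 h and 4 h, 14 between resting B and T cells, and 15 for the difference in response. With each array left out in turn these ranged from 14 to 17, 14 to 15, 13 to 15, 8 to 9, 13 to 15 and 14 to 16. With only the brightest probe set of each gene fitted, 10 were tested and 9, 9, 8, 6, 8 and 9 were called, because fewer were tested. With the replicate number as a block the counts were 16, 14, 14, 9, 14 and 14, and 1 call was lost, the Itga6 difference above. Same-numbered deviations from the group mean correlated over 0.1 in 3 of 30 pairs (-0.64 to 0.367). Whether same-numbered samples belong together cannot be decided from this. Each group has only 3 arrays, and the T arrays of weak 5' spike-in signal bear different replicate numbers. Without both T arrays of weak 5' spike-in signal 17, 14, 16, 9, 15 and 16 were called. Calls that changed with normalization, filter or spike-in were those of Itgb1, of Icam2 and of dimmer Itga4 and Itga6 probe sets. Signals at or near the floor limit Selp, Itgb7 after LPS, the Itga4 probe sets 1427615_at and 1450155_at in T cells with ConA, and the 6 untested probe sets. The Itgb1 probe set 1427771_x_at may lie at its own background level.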

Other observations

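Membrane partners of integrins were measured too. All 8 listed genes with a probe set of their own were tested (6 tetraspanins, the CD98 heavy chain Slc3a2, and Cd47, which binds alphavbeta3), and with LPS 3 rose and 5 fell in B cells. Slc3a2, the CD98 heavy chain that binds integrin beta tails, rose by 1.27 ± 0.07 with LPS, 1.12 ± 0.07 with ConA at 4 h and 1.14 ± 0.07 at 14 h (SE). Cd9 rose as well, by 0.92 ± 0.07, 0.33 ± 0.07 and 0.93 ± 0.07. Cd37, a leukocyte tetraspanin, fell by -2.17 ± 0.11 with LPS, -1.21 ± 0.11 with ConA at 4 h and -1.0 ± 0.11 at 14 h. Cd81, a partner of the B cell coreceptor, averaged 7.87 in T cells at 0 h, 7.06 at 4 h and 8.31 at 14 h, and rose by 1.25 ± 0.13 between 4 h and 14 h. Beside these counts, 37.3% of all genes rose and 42.0% fell with LPS.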
